A study of Homo sapiens with 24 samples.

Results

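*SNAI1*, *SNAI2*, *ZEB1*, *ZEB2*, *TWIST1* and *TWIST2* encode the core transcription factors of epithelial-mesenchymal transition (EMT). Their mRNA was measured in the hepatocellular carcinoma (HCC) cell lines PLC/PRF/5 and SNU-449 by looking up the accession that each non-control array probe carries, which gave 11 probes for these 6 genes, out of 58201 probes and 32614 gene names. *SNAI1* and *SNAI2* have 1 probe each, *ZEB1*, *TWIST1* and *TWIST2* have 2 and *ZEB2* has 3. Both lines were starved of serum overnight and then either left without further addition (control) or kept for 16 h with 1 ng/mL of recombinant human TGFβ1, with 10 µM of galunisertib, or with TGFβ1 and galunisertib together. Galunisertib is a small-molecule inhibitor of the kinase of the type I TGFβ receptor. Each of the 8 groups held 3 independent cultures, so that 24 one-colour Agilent SurePrint G3 arrays were measured, and each line is a single model of its tumour. The design asks how the basal level of each factor differs between the lines, how it responds to TGFβ1, and what galunisertib does to it with and without added TGFβ1.

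During EMT, epithelial cells lose the junctions that hold them to their neighbours and take on a motile, mesenchymal shape. The SNAI and ZEB proteins are zinc-finger factors that bind the E-box CACCTG, or CAGGTG on the other strand, and repress epithelial genes such as *CDH1*, which encodes E-cadherin. The TWIST proteins are basic helix-loop-helix factors that bind E-boxes as dimers with E proteins (*TCF3*, *TCF4*, *TCF12*), and the ID proteins hold E proteins away from DNA. TGFβ acts through SMAD proteins and is a known inducer of *SNAI1* in many epithelial cells and in hepatocytes.

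To show the sequence that SNAI and ZEB proteins recognise, promoter windows of RefSeq (GRCh38.p14, from 250 bases before to 50 bases after a start site) were searched for CACCTG or CAGGTG, each the reverse complement of the other, so that both strands were covered. The motif was found in 7231 of 35116 windows of all genes (20.6%). Of the 6 factors, *ZEB1*, *ZEB2* and *TWIST2* matched windows in the table, 9 in all, and 2 of these windows (22.2%), both of *ZEB1*, held it. Among 23 epithelial genes listed as targets of repression by these factors, 14 had windows, and *CDH1* was not one of them. Of their 18 windows, 11 (61.1%) held the motif. By gene, it was found for 9 of these 14, beside 6571 of 27305 among all genes. The *ZEB1* window with the most matches is shown together with those of *DSP* (desmoplakin, a desmosome protein) and *CLDN3* (claudin-3, a tight junction protein), whose array values are given further on, with the motif in capitals. They lie at chr10:31318966-31319265 on the plus strand, chr6:7541421-7541720 on the plus strand and chr7:73770221-73770520 on the minus strand, and are written 5′ to 3′ along the gene.
ZEB1: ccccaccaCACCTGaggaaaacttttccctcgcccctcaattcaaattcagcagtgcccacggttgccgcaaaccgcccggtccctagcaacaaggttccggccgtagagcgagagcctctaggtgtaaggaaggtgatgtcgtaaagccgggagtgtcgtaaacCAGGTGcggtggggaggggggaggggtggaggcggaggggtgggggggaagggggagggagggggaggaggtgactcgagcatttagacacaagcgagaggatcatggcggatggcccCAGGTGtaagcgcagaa
DSP: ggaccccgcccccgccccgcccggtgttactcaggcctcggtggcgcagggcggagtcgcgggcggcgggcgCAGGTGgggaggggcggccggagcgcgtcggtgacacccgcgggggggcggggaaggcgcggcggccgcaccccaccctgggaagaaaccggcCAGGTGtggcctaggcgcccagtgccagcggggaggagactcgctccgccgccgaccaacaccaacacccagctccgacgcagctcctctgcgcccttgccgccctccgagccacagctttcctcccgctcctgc
CLDN3: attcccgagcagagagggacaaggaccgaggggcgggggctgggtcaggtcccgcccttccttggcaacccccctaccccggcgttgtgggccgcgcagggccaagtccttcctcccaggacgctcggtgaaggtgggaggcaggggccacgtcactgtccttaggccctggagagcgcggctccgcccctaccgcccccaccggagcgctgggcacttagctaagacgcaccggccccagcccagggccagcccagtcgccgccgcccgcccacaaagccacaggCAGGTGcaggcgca
The matches begin 242 and 85 bases before the start of *ZEB1* and at position 34 after it, 178 and 85 bases before the start of *DSP*, and at position 37 after that of *CLDN3*. The windows of *CLDN1* and *CLDN4*, claudin genes described with *CDH1* among the targets, held no match. A match describes the letters only, since binding was not measured.

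Levels are given as log2 of a probe's processed signal over the 75th percentile of its array, so that 0 is the signal of the 75th percentile, and a change is a difference between group means on that scale. The 75th percentile of the raw signal lay between 145 and 262 intensity units over the 24 arrays, and 41.6% to 49.6% of probes were well above background by the scanner software's own flag. Signals under 5.70% of the 75th percentile were set to that floor, a log2 level of -4.13, and values at the floor have no order. All 7 hepatocyte markers were well above background on all 12 arrays of PLC/PRF/5 and 3 of 7 on all 12 of SNU-449, where *APOB*, *TF* and *HNF4A* were so on none. All 3 mesenchymal markers were above background in both lines, as were 4 of 4 epithelial markers in PLC/PRF/5 and 3 of 4 in SNU-449. The flag also passed 2 of 4 leukocyte markers in PLC/PRF/5, 1 of 4 in SNU-449 and 1 of 3 endothelial markers in each line, so it admits dim signals. The 3 hepatocyte markers passed in SNU-449 had medians of -3.06 to -2.64, beside -2.59 for the leukocyte marker *CD14*. On each slide, arrays with TGFβ1 lay in a different row from those without, and each line with or without galunisertib kept its own position within the row, so that row and position cannot be told apart from treatment and line.

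In control cells, every factor differed between the lines, and all but *SNAI1* were higher in SNU-449. With all 24 arrays in one limma fit, 6 of 6 factors had an adjusted p below 0.05, the threshold used throughout, as did 68.5% of the 18105 genes tested. For 72.2% of these genes the control arrays of the lines did not overlap. In bulk RNA, more cells with a transcript and more transcript per cell cannot be told apart.

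*SNAI1* was at -0.64, -0.79 and -0.60 in the 3 control cultures of PLC/PRF/5 and at -1.63, -1.85 and -1.81 in those of SNU-449. All 3 PLC/PRF/5 values were above all 3 SNU-449 values, a 2.12-fold higher level in PLC/PRF/5 (log2 difference 1.08, standard error 0.10, adjusted p = 8.44e-09). *SNAI2* stayed below that background flag on all 12 arrays of PLC/PRF/5 and was at -1.23, -0.92 and -0.61 in SNU-449 control cells. The level in SNU-449 was thus at least 7.97-fold higher (adjusted p = 7.33e-15), where "at least" sets the SNU-449 mean against the higher of the array's weakest signal above background and the probe's own signal in PLC/PRF/5. The adjusted p here, and for *ZEB2* and *TWIST1* below, is that of the difference from floored values in limma, not of the bound. Those PLC/PRF/5 values had little or no spread, which lowers these p-values.

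*ZEB1* was well above background on all 24 arrays, at 0.69, 0.80 and 0.97 in PLC/PRF/5 control cells and at 2.22, 2.20 and 2.46 in SNU-449 control cells. The groups did not overlap and the level was 2.77-fold higher in SNU-449 (adjusted p = 1.69e-08). *ZEB2* was at -0.27, -0.01 and -0.19 in SNU-449 control cells and at the floor on all 12 arrays of PLC/PRF/5, at least 13.5-fold higher in SNU-449 by this probe (adjusted p = 1.47e-17). Another *ZEB2* probe was above background in 2 of the 3 PLC/PRF/5 control cultures, at -2.37 and -3.44, and at the floor in the third and in all treated cultures of that line. It gave a smaller difference, -2.42 on the log2 scale, and the third, dimmest probe gave -1.45 against the floor.

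*TWIST1* was at 0.11, 0.17 and 0.34 in SNU-449 control cells and well above background on no array of PLC/PRF/5, at least 17.4-fold higher in SNU-449 (adjusted p = 9.4e-18). The other *TWIST1* probe was at the floor on all 24 arrays. *TWIST2* was dim but above background in PLC/PRF/5, at -1.75, -1.77 and -1.76 in control cells, against 1.20, 0.94 and 1.13 in SNU-449, a 7.19-fold higher level in SNU-449 (log2 difference -2.85, adjusted p = 8.49e-17). The other *TWIST2* probe was dimmer in both lines, with group means of -2.69 to -2.49 in PLC/PRF/5 and -1.98 to -1.83 in SNU-449. The plot of levels by array shows these patterns with the treated groups.

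**Figure D1:**
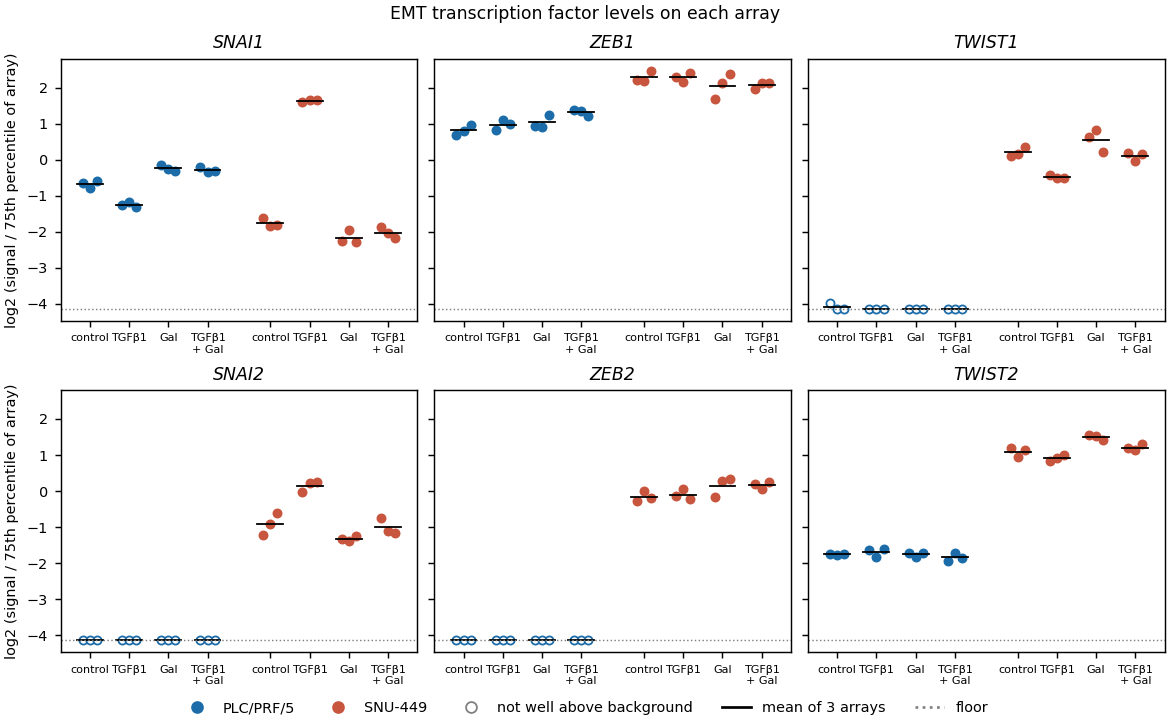
Log2 level (processed signal over the array's 75th percentile) of each EMT transcription factor on each of the 24 arrays, by line and treatment, with the floor of -4.13 marked. *SNAI1* in SNU-449 with TGFβ1 stands at 1.59 to 1.67, above its other 21 arrays, while the probes shown for *SNAI2*, *ZEB2* and *TWIST1* are not well above background on any PLC/PRF/5 array.

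TGFβ1 raised *SNAI1* and *SNAI2* and lowered *TWIST1* in SNU-449, and lowered *SNAI1* in PLC/PRF/5. In SNU-449, 3 of 6 factors were called, beside 10.4% of the 16227 genes tested in that line. Only *SNAI1*, *ZEB1* and *TWIST2* were bright enough to be tested in PLC/PRF/5, where 1 of 3 was called, beside 13.3% of 16865 genes.

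*SNAI1* was at 1.59, 1.66 and 1.67 in SNU-449 cells with TGFβ1. Each culture was far above the control range of -1.85 to -1.63. The level rose 10.6-fold (log2 change 3.40, standard error 0.12, 95% confidence interval 3.14 to 3.66, adjusted p = 1.94e-07), and the differences within the 3 slides were 3.22, 3.51 and 3.47. By absolute size this change ranked 2 among the 16227 genes tested. The PLC/PRF/5 cultures with TGFβ1 had *SNAI1* at -1.24, -1.19 and -1.32, below every control culture. It fell by 0.57 on the log2 scale, 1.49-fold lower (standard error 0.08, interval -0.76 to -0.39, adjusted p = 0.00149), with within-slide differences of -0.61, -0.39 and -0.72. This fall was -0.54 with scaling to the array median (adjusted p = 0.175) and -0.32 with no scaling between arrays (adjusted p = 0.598), neither of which passed the threshold.

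*SNAI2*, the close relative of *SNAI1*, was at -0.03, 0.23 and 0.24 in SNU-449 with TGFβ1, above the control values of -1.23 to -0.61. It rose 2.09-fold (log2 change 1.06, standard error 0.16, adjusted p = 0.00244), by 1.20, 1.15 and 0.84 within the slides. By a plain two-sample test, without the random variance model of the methods, its adjusted p was 0.0575.

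*ZEB1* did not pass the test in either line. With TGFβ1 it was at 2.28, 2.16 and 2.40 in SNU-449, a change of -0.01 with a 95% confidence interval of -0.37 to 0.34 (adjusted p = 0.98), and at 0.83, 1.09 and 1.00 in PLC/PRF/5, a change of 0.15 (adjusted p = 0.444). Both sets overlapped with their controls. *ZEB2* was at -0.14, 0.06 and -0.21 in SNU-449, a change of 0.06. Its 3 probes did not give the same picture, since the probe of middle brightness, at -1.66, -1.72 and -1.48 with TGFβ1 and -0.50, -1.14 and -1.03 in controls, fell by 0.73 (adjusted p = 0.0364 over all probes).

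*TWIST1* was at -0.42, -0.50 and -0.50 in SNU-449 with TGFβ1, below all 3 control cultures. It fell by 0.68 on the log2 scale, 1.60-fold lower (standard error 0.14, adjusted p = 0.0131), with within-slide differences of -0.53, -0.67 and -0.84. The adjusted p of *TWIST1* was 0.0508 without control replicate 3, 0.0538 without TGFβ1 replicate 2 and 0.0517 without TGFβ1 replicate 3, and the change was -0.58 with scaling to the array median (adjusted p = 0.194) and -0.54 with no scaling (adjusted p = 0.122). *TWIST2*, at 0.84, 0.92 and 1.01, changed by -0.17 in SNU-449 (adjusted p = 0.317). Its level in PLC/PRF/5 with TGFβ1 was between -1.82 and -1.60, a change of 0.07 (adjusted p = 0.623).

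The response of *SNAI1* to TGFβ1 differed between the lines by -3.97 on the log2 scale, PLC/PRF/5 minus SNU-449 (standard error 0.14, adjusted p = 1.87e-12), the largest such difference among the 14728 genes tested for it, of which 5.79% were called. *ZEB1* and *TWIST2* were also bright enough in both lines for this test, with differences of 0.16 (adjusted p = 0.738) and 0.24 (adjusted p = 0.276). No such difference is given for *SNAI2*, *ZEB2* and *TWIST1*, since the probes that represent them were not well above background in PLC/PRF/5 and had no measured change there. The plot of within-slide differences sets the lines side by side.

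**Figure D2:**
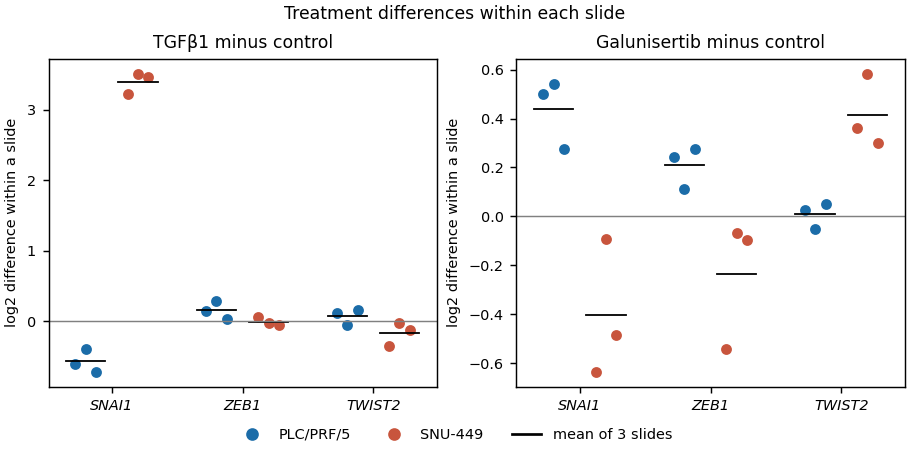
Difference in log2 level between treated and control arrays of the same slide for *SNAI1*, *ZEB1* and *TWIST2*, the factors tested in both lines. Points show the 3 slides, bars their mean and colours the lines. *SNAI1* with TGFβ1 lies at 3.22 to 3.51 in SNU-449 and at -0.72 to -0.39 in PLC/PRF/5.

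Galunisertib without added TGFβ1 raised *SNAI1* in PLC/PRF/5 and *TWIST2* in SNU-449. Arrays with galunisertib and control arrays did not overlap for 26.9% of genes in PLC/PRF/5 and 27.4% in SNU-449. The test called 1 of 3 factors in PLC/PRF/5, beside 5.33% of genes, and in SNU-449 1 of 6, beside 7.28% of genes. With all 24 arrays in the fit, 4 of 6 were called in SNU-449, *TWIST2* and also *SNAI1* (adjusted p = 0.0109), *SNAI2* (0.0333) and *TWIST1* (0.0402), with the same changes. For *SNAI2* and *TWIST1* the PLC/PRF/5 values in that fit lay at or near the floor. They had little or no spread and so narrowed the spread that the test used, which limits what these 2 calls show.

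*SNAI1* was at -0.14, -0.25 and -0.32 in PLC/PRF/5 with galunisertib, above all control cultures. It rose by 0.44 on the log2 scale (standard error 0.08, adjusted p = 0.0155), by 0.50, 0.54 and 0.28 within the slides. The adjusted p of *SNAI1* was 0.0685 without control replicate 2 (change 0.38), 0.0607 without galunisertib replicate 1 (change 0.39), and 0.161 with normexp background correction, which gave a change of 0.23. In SNU-449 it was at -2.26, -1.94 and -2.29, a change of -0.40 (adjusted p = 0.0683), and without galunisertib replicate 2 the change was -0.51 (adjusted p = 0.023). The difference of *SNAI1* between the lines was 0.84, PLC/PRF/5 minus SNU-449 (standard error 0.14, adjusted p = 0.00144), where 4.54% of 14216 genes were called, and 0.35 after normexp correction (adjusted p = 0.0937). *SNAI2* was at -1.34, -1.38 and -1.25 in SNU-449, all below the control values, but the change of -0.41 did not pass (adjusted p = 0.161).

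*TWIST2* was at 1.56, 1.52 and 1.43 in SNU-449 with galunisertib, above its controls. It rose 1.33-fold (log2 change 0.41, standard error 0.09, adjusted p = 0.0268), by 0.36, 0.58 and 0.30 within the slides, while its other probe changed by 0.09. The call on *TWIST2* ended without control replicate 2 (adjusted p = 0.0808), control replicate 3 (0.0552) or galunisertib replicate 1 (0.0721), and with the mean of its probes, 0.25 (adjusted p = 0.271). The *TWIST2* response differed between the lines by -0.41, PLC/PRF/5 minus SNU-449 (adjusted p = 0.0557), and by -0.46 without SNU-449 control replicate 1 (adjusted p = 0.0436). *TWIST1* was at 0.64, 0.82 and 0.21 in SNU-449 with galunisertib, where the third culture lay within the control range. Its change of 0.35 did not pass (adjusted p = 0.165), and without galunisertib replicate 3 it was 0.52 (adjusted p = 0.032).

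*ZEB1* was at 1.68, 2.13 and 2.36 in SNU-449 with galunisertib, overlapping its controls, a change of -0.24. Its PLC/PRF/5 cultures were at 0.93, 0.91 and 1.25, a change of 0.21 (adjusted p = 0.311). This probe differed within slides by 0.24, 0.11 and 0.28 in PLC/PRF/5 and by -0.54, -0.07 and -0.10 in SNU-449, opposite signs throughout, but the difference of these effects, 0.45, did not pass the test (adjusted p = 0.246). The second *ZEB1* probe did not show opposite signs, with a change of -0.12 in PLC/PRF/5 and -0.57 in SNU-449 (adjusted p = 0.0745 over all probes), where its values lay below the controls. *ZEB2* changed by 0.31 in SNU-449 (adjusted p = 0.201), at -0.16, 0.29 and 0.33, while its other probes changed by -0.28 and -0.38.

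Galunisertib given together with TGFβ1 left *SNAI1* and *SNAI2* far below their TGFβ1 levels in SNU-449 and *SNAI1* above its TGFβ1 level in PLC/PRF/5. Between cells with both agents and cells with TGFβ1 alone, 3 of 6 factors were called in SNU-449, beside 17.1% of genes, and 2 of 3 in PLC/PRF/5, beside 38.9% of genes. This contrast shares its TGFβ1 cultures with the TGFβ1 response, so that the comparisons are not independent.

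*SNAI1* in SNU-449 was at -1.85, -2.04 and -2.17 with both agents. It was 12.6-fold lower than with TGFβ1 alone (log2 change -3.66, adjusted p = 1.23e-07) and ranked 9 by absolute change. Set against untreated cells, the combination gave a change of -0.26 (adjusted p = 0.386). Added on top of galunisertib, TGFβ1 changed *SNAI1* by 0.14, with a 95% confidence interval of -0.12 to 0.41 (adjusted p = 0.567), against 3.40 without the inhibitor. The interaction of the agents, the change with galunisertib minus the change without it, was -3.26 (standard error 0.17, adjusted p = 9.46e-06), 1 of 6 factors called beside 2.60% of genes.

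*SNAI1* was at -0.20, -0.34 and -0.33 in PLC/PRF/5 with both agents, above every TGFβ1 and every control culture. It was 1.95-fold higher than with TGFβ1 alone (log2 change 0.96, adjusted p = 2.05e-05), by 1.05, 0.84 and 0.99 within the slides, and higher than in control cells by 0.39 (adjusted p = 0.0102). Added to galunisertib, TGFβ1 changed it by -0.05, with an interval of -0.23 to 0.13 (adjusted p = 0.713). The interaction was 0.52 (standard error 0.12, adjusted p = 0.0233), 1 of 3 factors beside 8.64% of genes, and the call on *SNAI1* ended without control replicate 3 (adjusted p = 0.0548), TGFβ1 replicate 1 (0.0584) or TGFβ1 replicate 3 (0.0665). *SNAI1* against control also ended under normexp correction, at 0.18 (adjusted p = 0.127).

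The 8 group means of *SNAI1* therefore ran from 1.64 ± 0.04 (SD, n = 3) in SNU-449 with TGFβ1, through -0.24 ± 0.09 with galunisertib, -0.29 ± 0.08 with both agents, -0.68 ± 0.10 in control and -1.25 ± 0.07 with TGFβ1 in PLC/PRF/5, to -1.76 ± 0.12 in control, -2.02 ± 0.16 with both agents and -2.16 ± 0.19 with galunisertib in SNU-449. Within this order, galunisertib and both agents in PLC/PRF/5 did not pass a test against each other, nor did control and both agents, control and galunisertib, or galunisertib and both agents in SNU-449. The neighbours of different lines in this order were not compared, since their treatments differ.

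*SNAI2* in SNU-449 was at -0.74, -1.09 and -1.17 with both agents, within the control range. It was 2.21-fold lower than with TGFβ1 alone (log2 change -1.15, adjusted p = 0.000944). Its change against control was -0.08 (adjusted p = 0.885), and TGFβ1 added to galunisertib gave 0.32 (adjusted p = 0.352). For *SNAI2* the interaction, -0.74 (standard error 0.23), did not pass (adjusted p = 0.146).

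*TWIST1* was at 0.19, -0.02 and 0.16 in SNU-449 with both agents, overlapping its control cultures. Compared with TGFβ1 alone it rose by 0.58 (adjusted p = 0.0192), a call that ended without TGFβ1 replicate 2 (adjusted p = 0.0674), TGFβ1 replicate 3 (0.0656), both-agents replicate 1 (0.0624) or both-agents replicate 3 (0.0604). Under scaling to the array median the change of *TWIST1* was 0.42 (adjusted p = 0.297), and with no scaling 0.40 (adjusted p = 0.197). *TWIST2* was at 1.18, 1.14 and 1.30, a change of 0.29 against TGFβ1 alone (adjusted p = 0.0609), which passed under 5 alternatives (normexp, the percentile over probes above background, quantile normalization, the raised floor and all 24 arrays), at adjusted p = 0.0174 to 0.0486. *TWIST2* changed by -0.16 against TGFβ1 alone in PLC/PRF/5, and no comparison within that line was called for it. With the 75th percentile taken over probes above background on all arrays, this change of *TWIST2* was -0.30 and passed (adjusted p = 0.0227).

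*ZEB1* was at 1.39, 1.34 and 1.20 in PLC/PRF/5 with both agents, the highest values of that line except for galunisertib replicate 3 at 1.25. It was higher than in control cells by 0.49 (standard error 0.12, adjusted p = 0.0146), which made 2 of 3 factors called in this comparison, beside 25.6% of genes, and higher than with TGFβ1 alone by 0.34 (adjusted p = 0.0412). The second *ZEB1* probe changed by 0.06 and 0.07 in these comparisons. The call of *ZEB1* against control ended without control replicate 1 (adjusted p = 0.0553) or both-agents replicate 1 (0.0531), and that against TGFβ1 without TGFβ1 replicate 1 (0.153), TGFβ1 replicate 3 (0.0849), both-agents replicate 1 (0.122) or both-agents replicate 2 (0.097), or with the percentile over probes above background (change 0.20, adjusted p = 0.167). In SNU-449, *ZEB1* at 1.96, 2.13 and 2.13 changed by -0.21 against TGFβ1 alone, and *ZEB2* at 0.21, 0.07 and 0.25 changed by 0.27 (adjusted p = 0.227).

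Set against control cells of SNU-449, the combination called 0 of 6 factors by limma, with 1 at an unadjusted p below 0.05 and 0 by the plain two-sample test, beside 0.487% of genes. TGFβ1 added to galunisertib called 0 of 6 in SNU-449, with 2 at an unadjusted p below 0.05 and 0 by the two-sample test, beside 1.89% of genes, and 0 of 3 in PLC/PRF/5, with 1 at an unadjusted p below 0.05 and 0 by the two-sample test, beside 8.32% of genes. In this last kind of comparison *TWIST1* changed by -0.45 in SNU-449 (adjusted p = 0.158), or by -0.62 without galunisertib replicate 3 (adjusted p = 0.0288), and *TWIST2* by -0.30 (adjusted p = 0.149). *ZEB1* in PLC/PRF/5 changed by 0.28 (adjusted p = 0.143), and passed after normexp correction (adjusted p = 0.0351). The plot of changes gives each estimate with its interval.

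**Figure D3:**
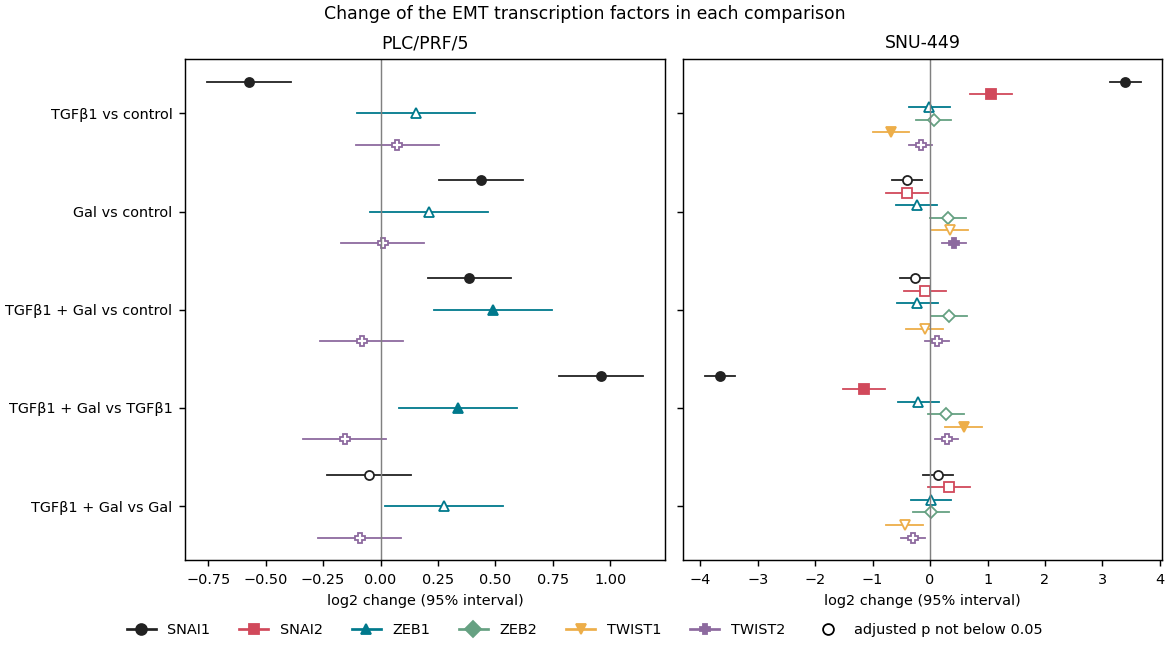
Log2 change of each EMT transcription factor in each comparison, with 95% confidence intervals from limma, by line. The *SNAI1* estimates in SNU-449 of 3.40 with TGFβ1 and -3.66 for galunisertib added to TGFβ1 lie farthest from 0, and the *SNAI1* estimates for TGFβ1 added to galunisertib lie at 0.14 and -0.05.

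Counts of called genes in lists linked to the factors are read against the share of all genes called in the same direction. With TGFβ1, 5.67% of genes were called higher and 4.74% lower in SNU-449, and 6.21% higher and 7.12% lower in PLC/PRF/5. Galunisertib alone gave 5.23% higher and 2.06% lower in SNU-449. Galunisertib added to TGFβ1 gave 9.77% higher and 7.31% lower in SNU-449, and 25.5% higher and 13.3% lower in PLC/PRF/5. TGFβ1 added to galunisertib gave 0.924% higher in SNU-449, and control cells of PLC/PRF/5 against SNU-449 gave 34.1% higher and 34.4% lower.

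A list of 6 direct TGFβ target genes showed whether the pathway responded. In SNU-449, TGFβ1 raised 5 of 6 (median log2 change 1.46, beside 0.02 over all genes), and galunisertib lowered 6 of 6 (median -2.07, beside 0.09). TGFβ1 added to galunisertib still raised 4 of 6 of these genes in SNU-449 (median 1.39, beside -0.05 over all genes), *SKIL* by 2.08 and *SMAD7* by 1.38 among them, a comparison in which *SNAI1* changed by 0.14. With galunisertib alone in SNU-449, *SKIL* was well above background in 2 of 3 cultures and its lowest value was the floor, so its change depends on the floor. TGFβ1 raised 4 of the 5 tested in PLC/PRF/5, *PMEPA1* at least 6.02-fold, *SKIL* by 1.63 and *SMAD7* by 0.80, the last pair being feedback inhibitors of the pathway, and lowered *CCN2* by 0.82. These 4 rose in the comparison in which *SNAI1* fell.

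The ID genes, whose proteins inhibit helix-loop-helix factors, fell with TGFβ1 in PLC/PRF/5, 4 of 4 (median -1.17, beside -0.03 over all genes). *ID3* fell by 1.54 (adjusted p = 1.12e-06), *ID4* by 1.34 (adjusted p = 5.73e-06), *ID1* by 1.00 (adjusted p = 0.000711) and *ID2* by 0.67 (adjusted p = 0.00194). All 4 were higher with both agents than with TGFβ1 alone, *ID4* by 1.86, *ID1* by 1.25, *ID3* by 1.08 and *ID2* by 0.51. In SNU-449, TGFβ1 raised *ID1* by 1.72 (adjusted p = 3.68e-05) and *ID3* by 1.08 (adjusted p = 0.00579), 2 of 4, and added galunisertib lowered *ID3* by 1.91 and *ID1* by 1.55. *ID1* and *ID3* thus moved with *SNAI1* in each line, down in PLC/PRF/5 and up in SNU-449. The basal level of the ID genes was higher in PLC/PRF/5 for 4 of 4, by 6.53 for *ID4*, 5.30 for *ID1*, 4.62 for *ID2* and 3.14 for *ID3*, opposite in sign to 5 of the 6 EMT factors.

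Of 16 further transcription factors linked to EMT, TGFβ1 raised 5 and lowered 1 of the 11 tested in SNU-449 (median 0.41), with *SOX4*, a high-mobility-group factor, up by 1.39 (adjusted p = 0.000442) and the E protein gene *TCF12* up by 0.71. Galunisertib added to TGFβ1 lowered *SOX4* by 1.36. TGFβ1 raised 1 of 9 in PLC/PRF/5, *SOX4*, by 0.49, and lowered 1. In control cells 9 of 12 were lower and 2 higher in PLC/PRF/5, with a difference of -6.34 for the E protein gene *TCF4*.

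Among 12 genes of corepressors and partners through which SNAI and ZEB proteins act, such as *KDM1A* and *CTBP2*, 2 rose and 2 fell with TGFβ1 in SNU-449. In PLC/PRF/5, 0 of 12 were called by limma, with 3 at an unadjusted p below 0.05. In control cells 10 of 12 were lower in PLC/PRF/5 and 1 higher. Of the genes that control the stability of the SNAI proteins, TGFβ1 raised *LOXL2* (lysyl oxidase-like 2) by 0.60 and *PAK1*, a kinase, by 0.57 in PLC/PRF/5, where 1 of the 12 tested fell. In SNU-449, 0 of 10 rose and 1 fell, and control cells of PLC/PRF/5 had a *LOXL2* level 8.07 log2 units under that of SNU-449.

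The 23 epithelial genes known as targets of repression did not move one way with the factors. With TGFβ1 in SNU-449, 3 of the 18 tested fell and 2 rose. *CDH1* was at -1.44 ± 0.48 (SD, n = 3) in control cells, with single cultures between -1.98 and -1.06, and at -3.44 ± 0.10 with TGFβ1, between -3.52 and -3.33. It fell by 2.00 on the log2 scale (standard error 0.25, adjusted p = 0.000671), and *CLDN1*, which encodes claudin-1, fell by 1.19 (adjusted p = 0.000248). *DSP*, whose window above holds 2 matches, rose by 0.89 (adjusted p = 2.89e-05), and *CLDN4* rose at least 2.81-fold.

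Galunisertib alone raised *CDH1* in SNU-449 to 0.38 ± 0.46 (SD, n = 3), by 1.82 (adjusted p = 0.00278), together with *JUP* (plakoglobin) by 0.72 and *CLDN1* by 0.69, 3 of 18 tested. With both agents *CDH1* was at -0.62 ± 0.06, higher than with TGFβ1 alone by 2.82 (adjusted p = 4.72e-05). In this comparison 5 of 18 rose, *CLDN1* by 1.47 and *CLDN3* by 0.89 (adjusted p = 0.0315) among them, and 2 fell, *CLDN4* at least 2.59-fold and *DSP* by 0.98. Against control, *CDH1* changed by 0.82 with both agents (adjusted p = 0.195). Its cultures with both agents, between -0.69 and -0.59, all lay below those with galunisertib alone, between -0.13 and 0.75. For TGFβ1 added to galunisertib in SNU-449, 20.3% of genes did not overlap, and *SNAI1* changed by 0.14.

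In PLC/PRF/5, where TGFβ1 lowered *SNAI1*, 3 of the 20 tested repression targets rose and 2 fell with TGFβ1, with changes of 0.64 for *CLDN4* and -0.59 for *CLDN1*. *CDH1* was at 2.32 ± 0.20 (SD, n = 3) in control cells, 2.54 ± 0.08 with TGFβ1, 1.97 ± 0.15 with galunisertib and 2.41 ± 0.07 with both agents. Its change was 0.22 with TGFβ1 (adjusted p = 0.223) and -0.35 with galunisertib (adjusted p = 0.0956), neither past the threshold, while TGFβ1 added to galunisertib raised it by 0.44 (adjusted p = 0.0401). *CLDN1* rose by 1.13 when galunisertib was added to TGFβ1. In control cells 16 of 21 repression targets were higher in PLC/PRF/5, *CDH1* by 3.76 (adjusted p = 1.63e-12) and *CLDN3* by 5.35, and 1 was lower, the plakophilin gene *PKP3*.

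Of 12 mesenchymal genes activated during EMT, TGFβ1 raised 5 of the 11 tested in SNU-449 and lowered 0 (median 0.56), with 0.93 for *CDH2*, which encodes N-cadherin (adjusted p = 0.000157), 0.92 for the collagen gene *COL1A1* and 0.91 for the fibronectin gene *FN1*, which was well above background in 1 of the 3 control cultures and in all 3 with TGFβ1. Galunisertib added to TGFβ1 lowered 5 and raised 1 of the 11, with changes of -1.02 for *CDH2* and -1.90 for *COL1A1*. TGFβ1 raised 2 of 7 in PLC/PRF/5, *CDH2* by 0.51 and 1 other. Basal levels were lower in PLC/PRF/5 for 8 of 11 and higher for 2, *FN1* among these, measured in 1 of 3 SNU-449 control cultures.

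Of 13 transcription and splicing factors that maintain the epithelial state, 3 of the 7 tested fell and 1 rose with TGFβ1 in SNU-449. *ELF3* fell by 1.01 (adjusted p = 0.00174), *FOXA2* by 0.80 (adjusted p = 0.00141) and the splicing regulator *ESRP2* by 0.54, and *KLF4* rose by 1.08. Galunisertib alone raised 3 of 7, *FOXA2* by 1.02 and *ELF3* by 0.61 among them. In PLC/PRF/5, 0 of 7 were called with TGFβ1 by limma, 1 of them at an unadjusted p below 0.05, and 6 of 7 were higher there in control cells. Of the 3 antisense transcripts at members of these families, *ZEB1-AS1* and *SNAI3-AS1* were bright enough to be tested. With both agents in PLC/PRF/5, the comparison in which *ZEB1* rose, *ZEB1-AS1* rose by 0.72 (adjusted p = 0.00857) and *SNAI3-AS1* fell by 0.30 (adjusted p = 0.0485). *SNAI3-AS1* also changed by 0.41 with TGFβ1 and -0.44 with galunisertib in PLC/PRF/5, by -0.71 for galunisertib added to TGFβ1 there, and by 0.59 with galunisertib in SNU-449.

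**Figure D4:**
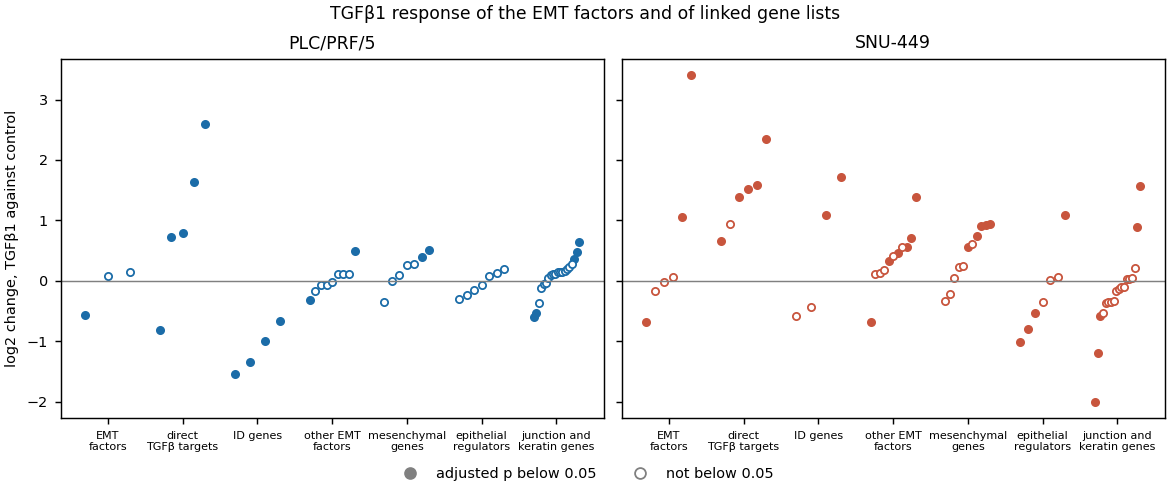
Log2 change with TGFβ1 against control of each tested gene of the EMT transcription factors and of the linked gene lists, by line, with filled points for an adjusted p below 0.05. The 4 ID genes lie between -1.54 and -0.67 in PLC/PRF/5, and *CDH1* lies at -2.00 in SNU-449.

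Of the genes called in these list counts, none changed sign under the scaling alternatives tried (array median, no scaling, the 75th percentile over probes above background, quantile normalization) except *PATJ*, a repression target whose basal difference of 0.30 became -0.07 with scaling to the array median. Counts did depend on the scaling: with scaling to the array median 3 of 4 ID genes fell with TGFβ1 in PLC/PRF/5, and with no scaling 2 of 4.

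The genes with the profiles most like each factor over the 12 arrays of a line were found by Pearson correlation of log2 level, as a description over arrays that share 4 treatments and a scaling. For *SNAI1* in SNU-449 these were *LIMK2* (r = 0.992), *INHBA* (0.992) and *DSP* (0.991) among 13995 genes, and for *SNAI2* they were *CDH2* (0.984), *SOX4* (0.982) and *TRIP11* (0.981). *TWIST1* was closest to *RAD51C* (0.957), *SAMD4A* (0.951) and *ENTPD6* (0.948), and *TWIST2* to *PLPBP* (0.970), *PELI3* (0.968) and *ICAM1* (0.964). In PLC/PRF/5, among 14953 genes, *SNAI1* was closest to *DDX56* (0.993), *MRPS15* (0.991) and *ICAM3* (0.988), and *ZEB1* to *CETN2* (0.962), *KCMF1* (0.959) and *SAP130* (0.957). No gene appeared on the lists of *SNAI1* in both lines.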

How the data were processed

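Cells of each line were profiled on 24 arrays, 12 per line and 3 per group, and groups and replicate numbers were taken from the sample labels. Each replicate number stands for 1 slide, and scanning took 1 day. For each array the authors deposited the output of Agilent Feature Extraction 10.7.3.1 (version as in the submitters' processing notes), whose processed signal gives a background-subtracted linear intensity per spot, with no normalization across arrays. A GeneSpring table of log2 values was deposited too. On 19267 probes its differences between arrays correlated at 0.9994 with those used here (slope 1), each probe being centred on its median, and its column medians ran from -0.0568 to 0.057. It served as an alternative only.

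Control and outlier spots were left out, spots of a probe were averaged, and signals were divided by the array's 75th percentile, floored at 5.70% of it and put on the log2 scale. Probes were kept if some group in the fit had all its arrays well above background, and a gene was represented by its brightest probe on average. Of 58201 probes, 31104 matched a gene of the RefSeq table by accession (assembly GRCh38.p14, used for names only), 10719 carry a long noncoding RNA name and 16378 were unnamed. limma 3.58.1 in R 4.3.3 was fitted to the group means of the 12 arrays of a line, or of all 24 arrays for comparisons between lines, and p-values were adjusted by Benjamini-Hochberg over all genes tested. Called means an adjusted p below 0.05. Effects were compared between lines only for genes above background in both. The limma step was tested on simulated data.

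The factors, the gene lists and the tests were chosen with earlier results of these data known. All factors are named in every comparison, and from each list the called genes of largest change, at most 4 per comparison, and *CDH1*, while some genes are not reported here. Same-numbered cultures deviated together from their group means for TGFβ1 against control (correlations 0.17 to 0.30 in PLC/PRF/5 and 0.13 to 0.22 in SNU-449). In the other comparisons the lowest correlation was 0.098 or less. All 3 were still positive in some of them, such as 0.098 to 0.27 for galunisertib added to TGFβ1 in SNU-449. Alternatives covered the background correction, scaling, floor, filter, probe choice, the authors' table and the slide as a block. They also covered a plain two-sample t-test (without the random variance model of the methods), the threshold, and each array left out. Human tumour profiles and survival data of the study were not used here.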

Additional observations from a re-analysis of the deposited data

Results flagged for a closer look

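The results below differed between the lines by a test of the difference itself (limma over all 24 arrays, adjusted p below 0.05), and each value is the effect in PLC/PRF/5 minus that in SNU-449 on the log2 scale. For the TGFβ1 effect, *SNAI1* differed by -3.97 (adjusted p = 1.87e-12), the largest among the factors. Among ID genes, *ID1* differed by -2.72 and *ID3* by -2.62. Among repression targets, *CDH1* differed by 2.22, *CLDN1* by 0.59, *CLDN4* by -0.92 and *DSP* by -0.84. *CLDN4* was at the floor in all SNU-449 control cultures, so its change there is a lower bound and this difference depends on the floor. *ELF3* differed by 1.14, *FOXA2* by 0.73, *ESRP2* by 0.74 and *KLF4* by -1.31, which are regulators of the epithelial state. *SOX4* differed by -0.90, *LOXL2* by 0.52 and the TGFβ target *CCN2* by -2.34.

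For the galunisertib effect, *SNAI1* differed by 0.84 (adjusted p = 0.00144), *CDH1* by -2.17, *JUP* by -0.63, *FOXA2* by -0.75 and the antisense transcript *SNAI3-AS1* by -1.04. The TGFβ targets differed by 2.00 for *SKIL*, 1.60 for *CCN2* and 1.46 for *SMAD7*. *SKIL* was well above background in 2 of 3 SNU-449 cultures with galunisertib, so its difference depends on the floor. No group had enough arrays for a search for single arrays that stand apart.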

How the results depend on the processing

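Counts of called factors changed as follows, and the cause was not tested. For TGFβ1 in PLC/PRF/5 (1 called), 0 were called with median scaling, no scaling or the fold rule (fold above 2 and P below 0.001). For galunisertib in PLC/PRF/5 (1), 0 with normexp, median scaling, no scaling, the t-test, the fold rule or only the groups compared. For both agents against control in PLC/PRF/5 (2), 1 with normexp or median scaling and 0 with no scaling, the t-test or the fold rule. For galunisertib added to TGFβ1 in PLC/PRF/5 (2), 1 with median scaling, no scaling, quantile normalization, no filter, the mean of probes, the t-test or all 24 arrays, and 0 with the fold rule. For TGFβ1 added to galunisertib in PLC/PRF/5 (0), 1 with normexp, and for the interaction there (1), 0 with normexp, median scaling, no scaling or the fold rule. For galunisertib in SNU-449 (1), 0 with median scaling, no scaling, the mean of probes, the t-test, the fold rule or only the groups compared, 2 with the floor at 200% (chosen after seeing the data) and 4 with all 24 arrays. All 24 arrays also gave 2 for TGFβ1 added to galunisertib (0) and 2 for the interaction (1) in SNU-449. In the fits over all 24 arrays, *SNAI2* and *TWIST1* lay at or near the floor in PLC/PRF/5. Their spread was narrowed by these values. For control cells (6), 3 were called where every array had to be above background, since only 3 were then tested. For the galunisertib effect between lines (1), 0 with median scaling, no scaling or the fold rule, and 2 with the percentile over probes above background, the raised floor, no filter or every array above background. Other counts kept their size within 1.5 times.

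Leaving out 1 array gave 1 to 2 called for TGFβ1, 0 to 2 for galunisertib, 1 to 3 for both agents, 1 to 2 for galunisertib added, 0 to 0 for TGFβ1 added and 0 to 1 for the interaction in PLC/PRF/5. In SNU-449 it gave 2 to 3, 0 to 2, 0 to 0, 2 to 3, 0 to 1 and 1 to 1 in the same order, and 6 to 6 in control cells, 1 to 1 for the TGFβ1 effect and 1 to 2 for the galunisertib effect between lines. The counts of 2 for TGFβ1 and for galunisertib in PLC/PRF/5 came without control replicate 3, where 4 factors instead of 3 were tested. Signs turned for *TWIST2*, galunisertib added to TGFβ1 in PLC/PRF/5, 0.022 with median scaling, for *SNAI1*, TGFβ1 added to galunisertib in PLC/PRF/5, 0.058 with median scaling and 0.14 with no scaling, and for *SNAI2*, both agents in SNU-449, which ranged from -0.24 to 0.073 with 1 array left out. Of 17 further results not called, with changes of -0.24 to 0.33, signs turned in 43 of 386 recomputed values, none of them called. With the slide as a replicate block, *SNAI1* changed by -0.57 with TGFβ1 in PLC/PRF/5 (adjusted p = 0.00333), and no call or count of the factors changed. Scaling alternatives moved the median of all genes by over 0.1, for TGFβ1 in PLC/PRF/5 to 0.215 with no scaling from -0.03. With 3 arrays per group, precision is limited by their number, and dim probes such as *TWIST2* in PLC/PRF/5 lie near background.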
